A study of Mus musculus with 80 samples.

Results

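Interferon response genes were followed in RNA of the growth plate, the calvaria and the cortical bone of juvenile mice that lack the matrix metalloproteinases MMP2, MMP9 or both. The 41 genes were listed by name as genes that interferon is known to induce. No measured value entered the rule, but the list was chosen with earlier results of these data known. Members made up 39 of the 14688 genes in the count table, while Trim30a and Ifi44 were not analysed here. The 80 libraries came from 33 female C57BL/6J mice aged 21 days, kept free of specific pathogens, and the labels name no treatment. The 12 groups were the 3 tissues of WT mice, of MMP2-/- mice, of MMP9-/- mice and of the MMP2-/-MMP9-/- double knockout (MMPdKO). The growth plate gave 7 WT, 6 MMP2-/-, 7 MMP9-/- and 7 MMPdKO libraries, the calvaria 7 of each, and the cortical bone 7, 5, 7 and 6. The alleles are lost in every cell of the body. WT and MMP9-/- mice were bought, MMP2-/- mice came from another laboratory and MMPdKO mice were bred from crosses of both, so genotype and line of origin cannot be told apart.

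Interferons are secreted proteins that bind surface receptors and act through JAK kinases. In the type I response STAT2 and IRF9 are part of a complex that binds the interferon-stimulated response element (ISRE) in promoters, whereas type II interferon acts at the gamma activated site (GAS). The induced proteins sense viral RNA, block virus entry, degrade RNA or prepare peptides for T cells. In bone, interferons of both types are known to restrain the formation of osteoclasts, the cells that resorb bone and calcified cartilage. MMP9 is abundant in osteoclasts and neutrophils, and MMP2 is made mainly by mesenchymal cells.

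The promoters of the members carried the ISRE in a larger share than promoters in general. RefSeq sequences (GRCm38.p6) from 250 bases before to 50 bases after the transcription start were found for 32 of the 41 listed genes. The ISRE core, GAAA followed after any 2 bases by a second GAAA and searched on both strands, was present in 20 of their 37 windows (54.1%) and in 3.44% of all 32851 windows. The GAS letters TTCNNNGAA were present in 9 of the 37 windows (24.3%) and in 8.30% of all windows. The 6 windows printed here are a choice. Oas3, Ifitm2 and Ifitm3 passed in a comparison below, and Isg15, Rsad2 and Psmb8 passed in no main fit. Of the other members that passed, Oasl1 has a window with 0 ISRE and 0 GAS copies. No window was found for Oas2 and Parp14. In Isg15, a ubiquitin-like modifier, 3 overlapping ISRE copies run from base -78 to -57 relative to the start (chr4:156200769-156201068, minus strand). Rsad2, the antiviral enzyme viperin, has 1 copy from -120 to -111 (chr12:26456403-26456702, minus strand). Oas3, an enzyme whose product activates RNase L, has 1 copy from -75 to -66 (chr5:120777610-120777909, minus strand). Ifitm2, a membrane protein that restricts virus entry, has 1 copy from -46 to -37 (chr7:140955912-140956211, minus strand), and its paralog Ifitm3 has 2 copies between bases 3 and 29 after the start (chr7:141010695-141010994, minus strand). Psmb8, a catalytic subunit of the immunoproteasome, has no ISRE copy and 1 copy of the GAS letters (chr17:34197945-34198244, plus strand). Capitals mark the ISRE core on either strand and, in Psmb8 alone, the GAS letters. A match of letters describes the window and is not a measured binding site.
Isg15: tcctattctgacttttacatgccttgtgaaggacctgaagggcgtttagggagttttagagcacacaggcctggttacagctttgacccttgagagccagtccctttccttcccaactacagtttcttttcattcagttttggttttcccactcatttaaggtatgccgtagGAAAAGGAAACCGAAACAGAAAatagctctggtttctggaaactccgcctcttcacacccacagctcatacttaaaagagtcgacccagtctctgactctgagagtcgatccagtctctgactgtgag
Rsad2: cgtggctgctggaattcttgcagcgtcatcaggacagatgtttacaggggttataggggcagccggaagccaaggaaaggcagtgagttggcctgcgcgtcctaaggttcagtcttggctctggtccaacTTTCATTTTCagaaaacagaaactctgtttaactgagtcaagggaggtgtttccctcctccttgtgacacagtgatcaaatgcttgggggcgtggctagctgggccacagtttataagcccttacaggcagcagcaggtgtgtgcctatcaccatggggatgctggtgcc
Oas3: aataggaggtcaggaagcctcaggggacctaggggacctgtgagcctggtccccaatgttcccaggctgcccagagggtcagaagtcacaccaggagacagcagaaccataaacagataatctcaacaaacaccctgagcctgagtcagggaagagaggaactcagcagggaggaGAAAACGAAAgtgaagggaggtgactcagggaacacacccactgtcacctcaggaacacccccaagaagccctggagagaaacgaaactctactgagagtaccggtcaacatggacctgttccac
Ifitm2: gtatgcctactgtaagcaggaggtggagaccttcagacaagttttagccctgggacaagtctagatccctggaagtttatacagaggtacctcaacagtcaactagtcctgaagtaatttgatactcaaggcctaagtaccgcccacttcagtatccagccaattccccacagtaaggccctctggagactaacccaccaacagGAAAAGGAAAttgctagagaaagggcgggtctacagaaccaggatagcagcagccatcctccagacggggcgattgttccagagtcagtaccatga
Ifitm3: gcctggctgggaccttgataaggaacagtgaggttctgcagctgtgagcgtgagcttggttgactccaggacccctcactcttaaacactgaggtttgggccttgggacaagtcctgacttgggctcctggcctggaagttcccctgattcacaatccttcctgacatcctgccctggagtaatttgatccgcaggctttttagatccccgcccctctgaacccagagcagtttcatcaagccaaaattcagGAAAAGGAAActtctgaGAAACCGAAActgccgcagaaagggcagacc
Psmb8: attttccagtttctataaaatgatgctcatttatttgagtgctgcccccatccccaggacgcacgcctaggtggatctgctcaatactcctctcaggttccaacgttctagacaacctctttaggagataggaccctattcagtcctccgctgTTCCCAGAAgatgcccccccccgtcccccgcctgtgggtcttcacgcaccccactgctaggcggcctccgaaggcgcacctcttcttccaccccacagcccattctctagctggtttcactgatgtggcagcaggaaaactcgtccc

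The libraries held 114408 to 1921698 counts assigned to genes. Mmp2 was at 4.05 to 50.6 CPM (counts scaled to a common effective library size) in the libraries labelled MMP2-/- or MMPdKO and at 220 to 965 CPM in all others. Mmp9 was lower in every MMP9-/- and MMPdKO library than in every library of the same tissue with an intact gene, though it still reached 984 CPM in 1 growth plate of MMP9-/- mice. Of 15 chondrocyte markers, 13 were higher in the growth plate than in the cortical bone of WT mice, but 5 growth plate libraries were low in the cartilage collagen Col2a1 (WT replicates 2, 3 and 7, MMP2-/- replicate 5 and MMP9-/- replicate 7). Erythroid markers summed to 57356 to 144049 CPM in WT growth plate, 115192 to 174303 CPM in WT calvaria and 36148 to 171639 CPM in WT cortical bone.

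Interferon response genes differed widely in level from each other. Together the 39 members took 0.166% of all counts. The median over the 80 libraries was at least 10 CPM in 21 members and lower in 18, and 18 members had a count in every library. The reads come from transcript ends, so levels were not divided by transcript length. The highest medians were those of Ifitm2 at 254 CPM, Ifitm3 at 188 CPM, the mitochondrial protein Ifi27 at 174 CPM, Isg15 at 153 CPM and Bst2, the virus tethering factor, at 124 CPM. Group means of Ifitm2 ranged from 215 ± 66.6 CPM (SD, n = 7) in WT cortical bone to 345 ± 89.9 CPM in growth plate MMPdKO. Those of Isg15 ranged from 98.6 ± 64.8 CPM (SD, n = 6) in growth plate MMP2-/- to 231 ± 85.8 CPM (n = 7) in calvaria MMP9-/-. The transcription factors Irf1, Irf7, Irf9 and Stat2 had medians of 59.3, 53.4, 72.4 and 36.5 CPM. Among the antigen processing genes, Psmb8 stood at a median of 114 CPM, the peptide transporter Tap1 at 49.998 CPM, the immunoproteasome subunit Psmb9 at 35.8 CPM and B2m, the light chain of MHC class I, at 24.4 CPM.

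The lowest members were close to no detection. Mx1, an antiviral GTPase, had 92 counts over the 80 libraries and none in 38 of them. Ifit1, which binds foreign RNA caps, had 197 counts. In Mx1, Mx2, Oas1a, Ifit2, Ifit3 and Gbp2 no library reached the minimum of 15 counts that a gene needed in at least 1 library of a fit, and these 6 were not tested. Tested were 26 members in the growth plate, 32 in the calvaria, 29 in the cortical bone and 30 in WT mice across tissues. Some of these reached the minimum in 1 group of their fit only, which were 5 members in the growth plate (through MMP9-/-), 2 in the calvaria (Cxcl10 and Ifit1, through MMPdKO), 3 in the cortical bone (Gbp7, Ifih1 and Xaf1, through WT) and 4 in WT mice (Oasl1, Oasl2 and Gbp7 through the cortical bone and Usp18 through the calvaria). A member that was tested only because of the group in which it is high had its direction favoured by the minimum, and its values are given as a description.

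**Figure D1:**
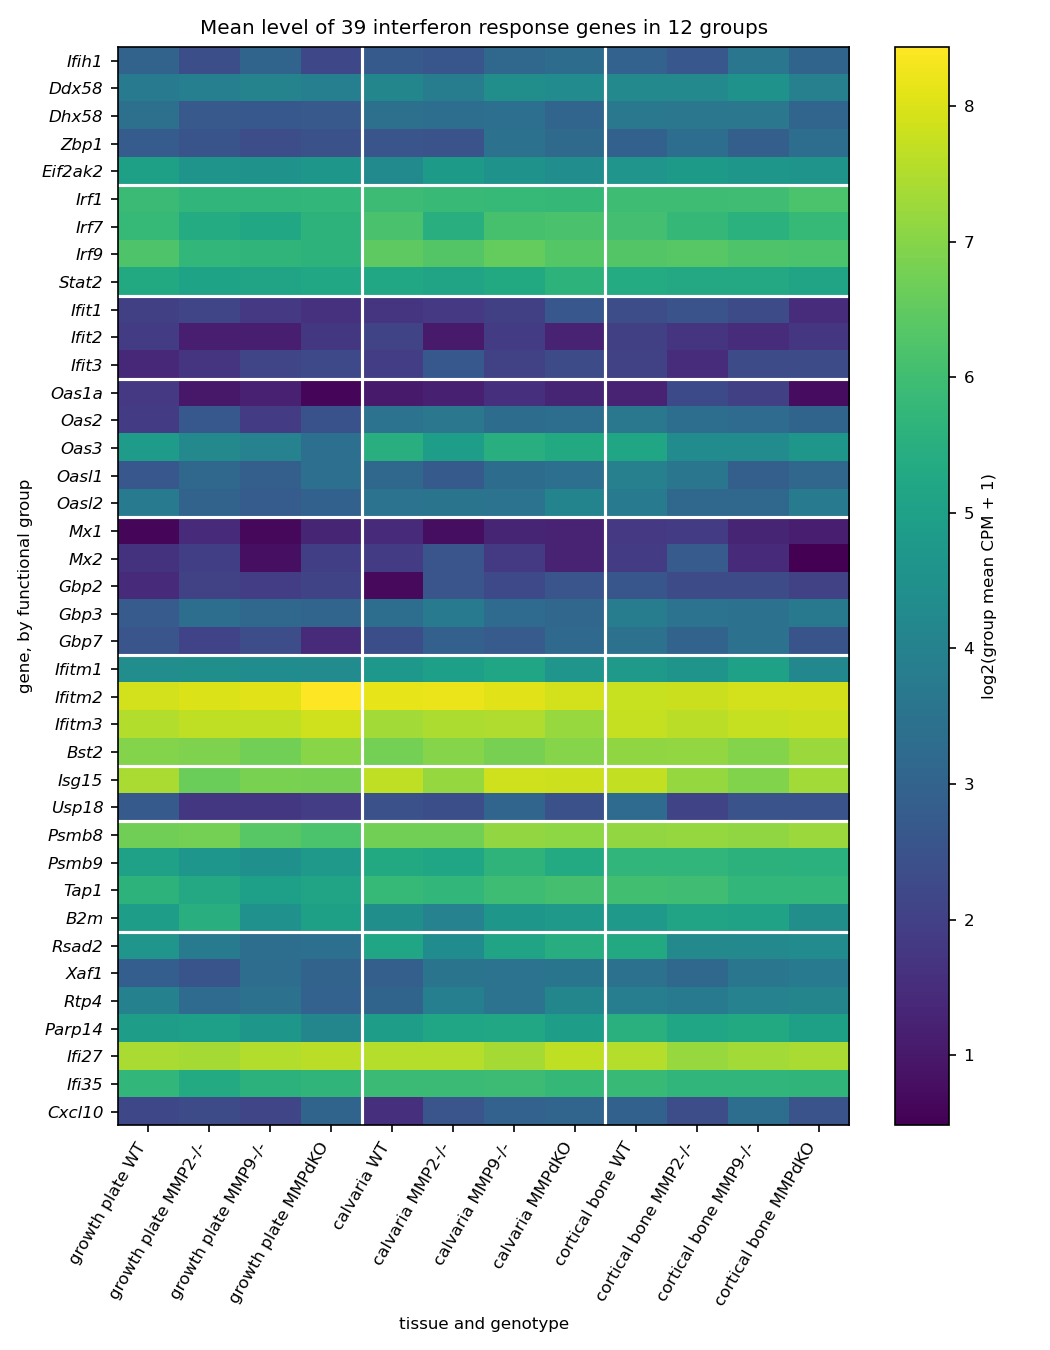
Group mean level of the 39 measured members (rows, ordered by function, with white lines between functional groups) in the 12 groups (columns), as log2 of the mean CPM plus 1. Ifitm2, Ifitm3, Ifi27, Isg15 and Bst2 form the bright rows in all 3 tissues, and the Ifit, Mx and Oas1a rows are dark in the 12 groups.

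Libraries of 1 group, each from another mouse, differed widely in some members. The SD within groups, on the log2 CPM scale, was 0.77 for Rsad2, 0.74 for the RNA sensor Ifih1, 0.72 for Oas3, 0.72 for Usp18, the protease that removes ISG15, and 0.70 for the guanylate binding protein Gbp7. It was 0.22 for Ifi27 and 0.24 for Ifitm3. Ifih1, Usp18 and Gbp7 had medians of 5.56, 4.53 and 4.62 CPM, where few counts are behind a value, while Oas3 and Rsad2 stood at 25.6 and 20.7 CPM. Isg15, among the most abundant members, had an SD of 0.69.

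In the growth plate of MMPdKO mice Oas3 fell and Ifitm2 rose against WT. These were 2 of 26 members tested (edgeR quasi-likelihood test, Benjamini-Hochberg adjusted p under 0.05 over all genes), a share near the background, in which 6.60% of the 10461 genes passed. Oas3 was at 17.2 to 38.2 CPM (median 28.9 CPM) in the 7 WT libraries and at 5.43 to 15.1 CPM (median 8.25 CPM) in the 7 MMPdKO libraries. Every MMPdKO library lay below every WT library in CPM. Few counts stood behind these levels, 2 to 10 in an MMPdKO library and 8 to 35 in a WT library, and the raw counts overlapped. Groups without overlap, in either direction, were found in 1.44% of all genes tested and in no other member. The group means were 28.2 ± 7.97 CPM in WT and 9.37 ± 3.57 CPM in MMPdKO (SD, n = 7 each), and the fitted log2 fold change was -1.55 (SE 0.44, adjusted p = 0.0334). The single knockouts reached into both ranges, with Oas3 at 2.10 to 27.8 CPM (median 19.3 CPM) in MMP2-/- and 1.86 to 32.8 CPM (median 10.97 CPM) in MMP9-/-. Ifitm2 was at 192 to 296 CPM (median 232 CPM) in WT and at 242 to 513 CPM (median 318 CPM) in MMPdKO. The groups overlapped through MMPdKO replicates 2 and 5, the others lying above all WT libraries, and replicate 6 was the highest. The group means of Ifitm2 were 234 ± 34.6 CPM and 345 ± 89.9 CPM (SD, n = 7 each), and its log2 fold change was 0.57 (SE 0.16, adjusted p = 0.0310). Ifitm1, Ifitm2 and Ifitm3 are paralogs in a cluster on chromosome 7, and the treatment of reads shared between paralogs is not given in the sources used here.

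Among the 24 members that did not pass, those next in order were mostly lower in MMPdKO. Parp14, an ADP-ribosyltransferase, was at 16.5 ± 5.60 CPM against 29.9 ± 7.66 CPM in WT (log2 fold change -0.79 with SE 0.26, adjusted p = 0.0607). Irf9 stood at 48.3 ± 16.5 CPM against 75.6 ± 15.1 CPM (log2 fold change -0.64 with SE 0.22, adjusted p = 0.0682). Rsad2 stood at 9.45 ± 5.95 CPM against 23.7 ± 8.29 CPM (log2 fold change -1.25 with SE 0.44, adjusted p = 0.0780), and Psmb8 at 71.1 ± 15.2 CPM against 104 ± 11.2 CPM (log2 fold change -0.51 with SE 0.19, adjusted p = 0.0932). The median log2 fold change of the 26 members was -0.23, against 0.02 over all genes, and 17 of the 26 were negative, against 48.7% of all genes. At an unadjusted p under 0.05, 10 members stood out, against 23.6% of all genes, and 8 of them were lower, against 11.6% of all genes. By function and by sign of the fit alone, the 4 membrane restriction factors had positive values, the 4 transcription factors negative ones, and the antigen processing genes 3 negative and 1 positive. Among the membrane restriction factors only Ifitm2 passed, and Ifitm1 was at 5.03 to 27.1 CPM in MMPdKO and 11.2 to 30.2 CPM in WT. DESeq2 called 4 members, with Rsad2 and Irf9 as lower beside Oas3 and Ifitm2. A fit of the MMPdKO and WT libraries alone called 6, with Parp14 and Psmb8 added, and a fit without the count minimum called Oas3 alone (Ifitm2 adjusted p = 0.0509).

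**Figure D2:**
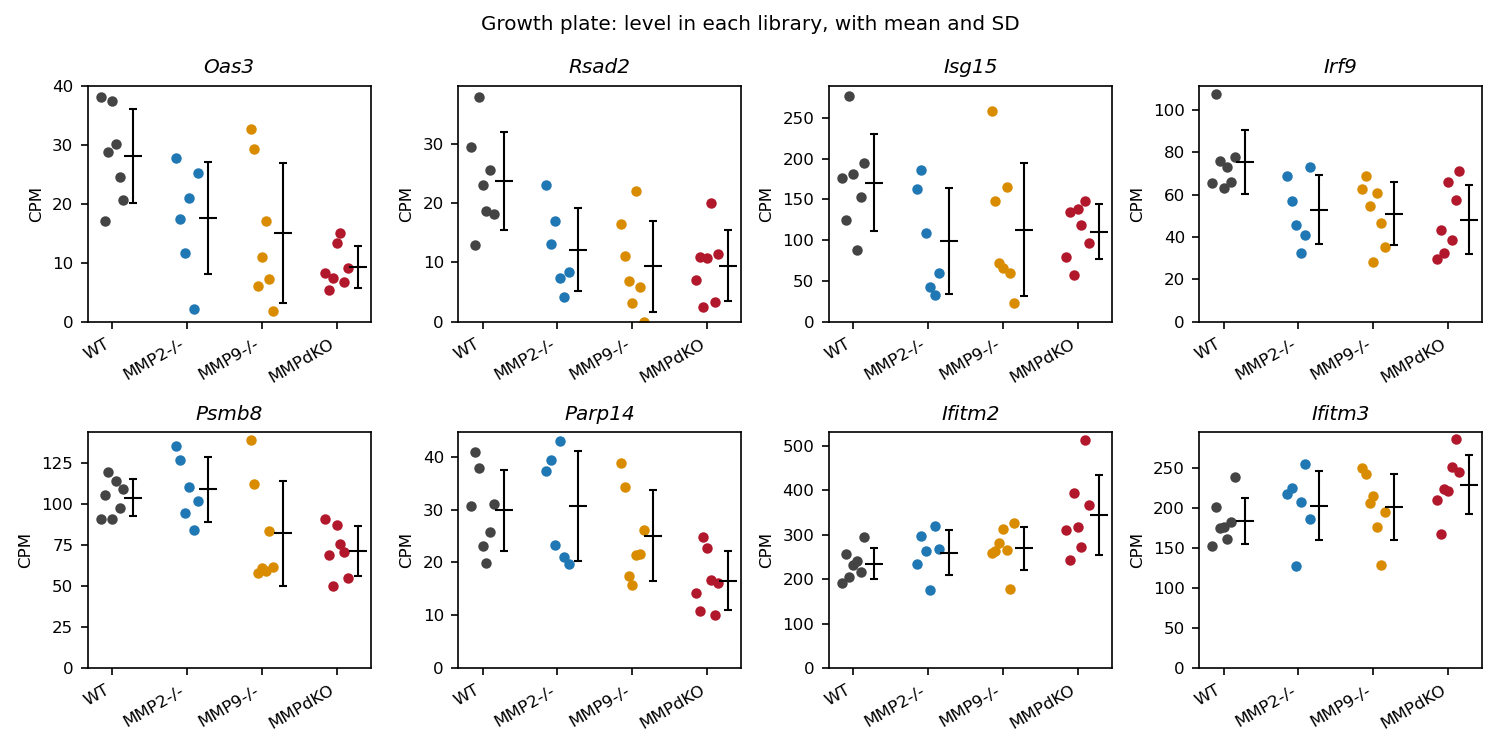
Level (CPM, linear axis from 0) of 8 members in each growth plate library by genotype. Points are libraries, and the bar beside them gives the mean and SD. The MMPdKO points of Oas3 lie at or under 15.1 CPM, below the WT points, and those of Ifitm2 reach 513 CPM.

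Both calls depended on single libraries. Oas3 did not pass without WT replicate 1 (adjusted p = 0.0683), 3 (0.0639) or 4 (0.0550) or without MMPdKO replicate 2 (0.0520), 3 (0.0695), 6 (0.0607) or 7 (0.0599). Ifitm2 did not pass without WT replicate 1 (adjusted p = 0.0747), 3 (0.0775), 4 (at the threshold) or 6 (0.0626) or without MMPdKO replicate 3 (0.0716), 6 (0.0890) or 7 (0.0572). Over all fits with 1 library left out, the log2 fold change stayed between -1.70 and -1.46 for Oas3 and between 0.44 and 0.63 for Ifitm2. Without the 5 growth plate libraries low in Col2a1, an alternative chosen after seeing the data, both passed (adjusted p = 0.00985 and 0.0305).

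Markers of blood cells were lower in the same comparison. There 6.60% of all genes passed, in either direction. Of 19 neutrophil and granulocyte precursor markers tested 7 fell and none rose in MMPdKO growth plates, with a median log2 fold change of -1.16, and their summed level was 691 to 3643 CPM against 3476 to 9534 CPM in WT, with the marker Ly6g at 0 in all 7 MMPdKO libraries. Summed levels of markers are over all genes of a list in the count table, also those under the count minimum. Of 11 erythroid markers 5 fell (summed 12004 to 71212 CPM against 57356 to 144049 CPM), of 10 B cell markers 4 fell (375 to 713 CPM against 724 to 1201 CPM), and of 13 macrophage and monocyte markers 4 fell (1276 to 1748 CPM against 1796 to 2797 CPM). Of 12 endothelial markers 7 rose (975 to 2056 CPM against 780 to 1126 CPM), and of 15 chondrocyte markers 3 rose (21717 to 87336 CPM against 7081 to 41192 CPM). With the neutrophil score of each library as a covariate no member passed, and the log2 fold changes were -0.68 for Oas3 (adjusted p = 0.612) and 0.35 for Ifitm2 (adjusted p = 0.489). With the macrophage score they were -1.11 (adjusted p = 0.270) and 0.38 (adjusted p = 0.302). The neutrophil score was 6.08 to 7.29 in WT and 4.38 to 6.03 in MMPdKO, without overlap. A fit with the neutrophil score can therefore hardly separate it from the genotype. The macrophage score was 4.793 to 5.237 in WT and 4.49 to 4.945 in MMPdKO. These ranges overlapped, though most MMPdKO libraries lay below all WT libraries. No conclusion is drawn from the calls lost with either score. In RNA of whole tissue, fewer cells of a type and less RNA per cell cannot be told apart, and the part of these markers in the values of the members was not tested.

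Other genes of the pathway were examined in the same fit, where 6.60% of all genes passed in either direction. None of the 21 listed interferon ligands was analysed here. Of the 9 receptors and kinases 7 were tested and none passed (smallest adjusted p = 0.302, with 0 at an unadjusted p under 0.05). Of 34 further interferon-induced genes tested 4 fell and none rose, with a median log2 fold change of -0.57. Cmpk2, a mitochondrial nucleotide kinase, was at 8.59 to 41.5 CPM (median 16.7 CPM) in WT and 0 to 8.25 CPM (median 4.58 CPM) in MMPdKO (log2 fold change -1.97 with SE 0.47, adjusted p = 0.0155), and all MMPdKO libraries lay below all WT libraries. Pml, the organiser of PML nuclear bodies, was at 66.7 to 105 CPM (median 80.3 CPM) and 28.3 to 57.9 CPM (median 37.6 CPM) (log2 fold change -0.96 with SE 0.20, adjusted p = 0.0107), again without overlap. The others were Trim12a (log2 fold change -1.07 with SE 0.30, adjusted p = 0.0333) and Slfn2 (log2 fold change -0.82 with SE 0.25, adjusted p = 0.0444). Of 13 further antigen presentation genes 2 fell. They were H2-K1, a class I heavy chain, at 182 ± 54.5 CPM against 300 ± 95.2 CPM in WT (SD, log2 fold change -0.70 with SE 0.21, adjusted p = 0.0394), and Tapbp, the peptide loading factor tapasin (log2 fold change -0.46 with SE 0.14, adjusted p = 0.0476).

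In growth plates that lacked 1 of the proteases no member passed. For MMP9-/- against WT, where 0.258% of all genes passed, Tap1 was at 30.1 ± 11.2 CPM against 48.6 ± 12.1 CPM (log2 fold change -0.67 with SE 0.22, adjusted p = 0.128), with overlap between the groups. Rsad2 (log2 fold change -1.23 with SE 0.40, adjusted p = 0.130) and Irf9 (log2 fold change -0.52 with SE 0.21, adjusted p = 0.196) came next. At an unadjusted p under 0.05, 7 of 26 members were lower and none higher, against 8.16% of all genes lower and 15.7% in either direction, and DESeq2 called 0. Rsad2 passed when MMP9-/- replicate 5 was left out. For MMP2-/- against WT, where 0.0382% of all genes passed, the smallest p were those of Irf9 (log2 fold change -0.52 with SE 0.22, adjusted p = 0.555), Rsad2 (log2 fold change -0.93 with SE 0.43, adjusted p = 0.582) and Isg15 (log2 fold change -0.78 with SE 0.39, adjusted p = 0.632). Here 2 of 26 members had an unadjusted p under 0.05, against 7.90% of all genes, and DESeq2 called 0. The median log2 fold change of the 26 members was -0.30 in MMP9-/- and -0.22 in MMP2-/-, where the medians of all genes were 0.03 and 0.04. The 3 knockout comparisons share their 7 WT libraries.

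**Figure D3:**
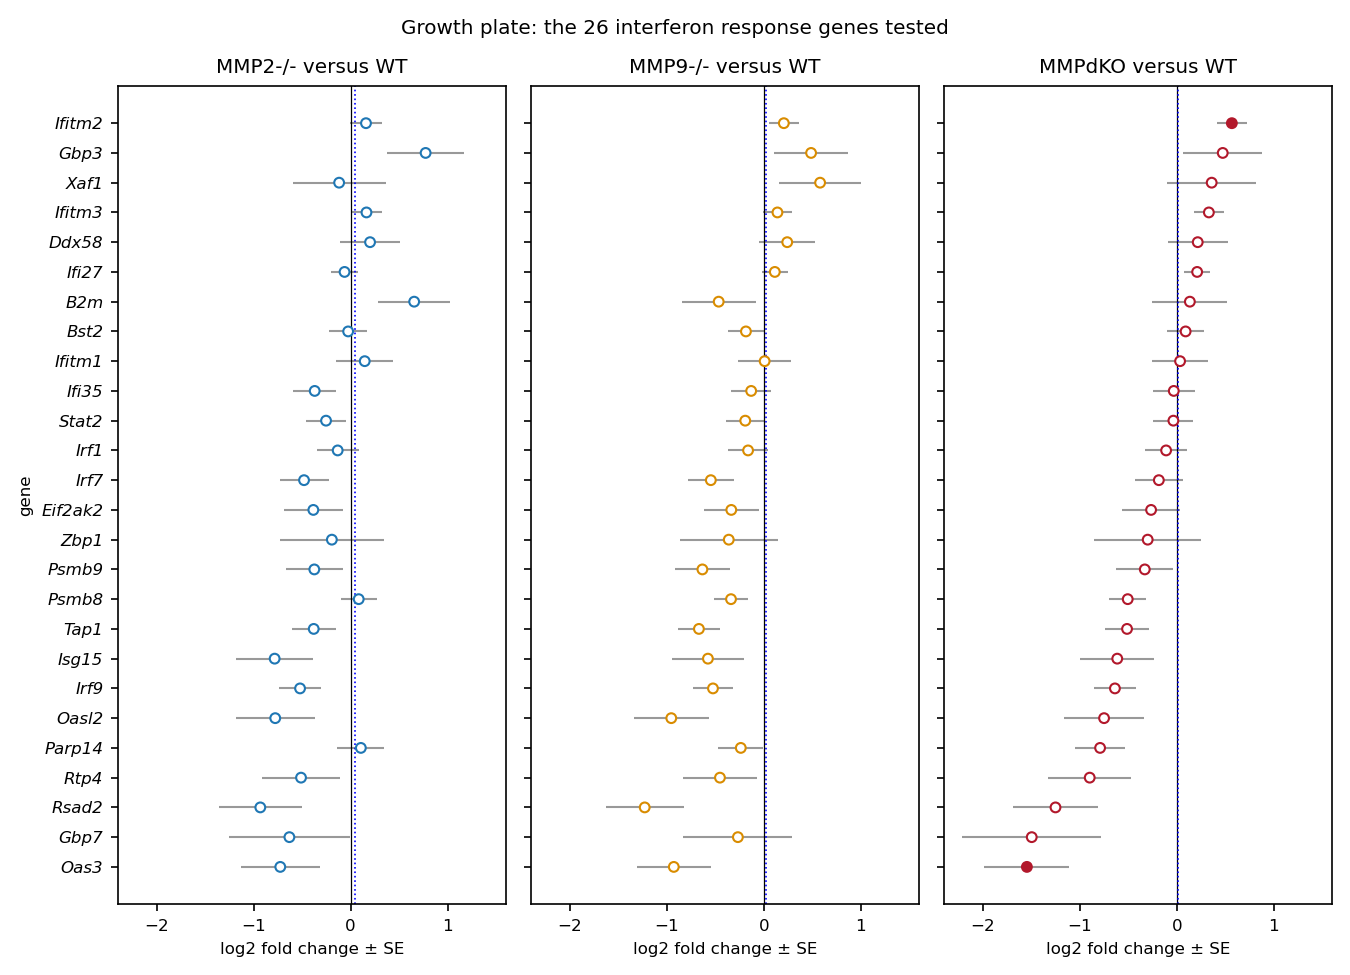
Log2 fold change against WT (x axis, bars are the SE) of the 26 members tested in the growth plate (rows, ordered by the MMPdKO value), with a panel for each knockout. Filled points passed at an adjusted p under 0.05, which are Oas3 at -1.55 and Ifitm2 at 0.57 in MMPdKO, and the dotted line is the median of all genes.

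In the calvaria no member passed in any knockout. Of all genes 0.216% passed in MMP2-/-, 0.0188% in MMP9-/- and 0.0657% in MMPdKO. Irf7, a factor that amplifies type I interferon production, was at 58.3 to 81.1 CPM (median 74.03 CPM) in WT and 23.1 to 59.7 CPM (median 41.3 CPM) in MMP2-/- (log2 fold change -0.63 with SE 0.20, adjusted p = 0.194), with 1 MMP2-/- library inside the WT range. In MMP2-/- it was followed by Rtp4, which binds viral RNA (log2 fold change 1.01 with SE 0.36, adjusted p = 0.272), and Rsad2 (log2 fold change -0.78 with SE 0.31, adjusted p = 0.347). In MMP9-/- the smallest p were those of Cxcl10, a chemokine for T cells (log2 fold change 1.38 with SE 0.55, adjusted p = 0.577), Psmb8 (log2 fold change 0.41 with SE 0.18, adjusted p = 0.653) and Ifitm1 (log2 fold change 0.42 with SE 0.22, adjusted p = 0.731). In MMPdKO, Rtp4 was at 7.80 to 31.3 CPM (median 15.01 CPM) against 2.90 to 12.3 CPM (median 6.44 CPM) in WT (log2 fold change 1.19 with SE 0.34, adjusted p = 0.375), and Cxcl10 at 2.71 to 13.7 CPM (median 6.68 CPM) against 0 to 3.13 CPM (median 1.75 CPM) (log2 fold change 1.74 with SE 0.51, adjusted p = 0.416). Both overlapped with WT, as did Stat2 (log2 fold change 0.41 with SE 0.15, adjusted p = 0.657). Cxcl10 was tested only through MMPdKO libraries, with up to 17 counts there and up to 8 in the other groups. At an unadjusted p under 0.05 there were 5 of 32 members in MMP2-/-, 2 in MMP9-/- and 3 in MMPdKO, against 9.51%, 7.11% and 5.81% of all genes, and DESeq2 called 0 in each. The median log2 fold changes were -0.04, 0.19 and 0.17.

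In the cortical bone no member passed either. Of all genes 0.0419% passed in MMP2-/-, 0.0105% in MMP9-/- and 0.0314% in MMPdKO. Rsad2 was at 7.13 to 96.1 CPM (median 40.9 CPM) in WT, 7.79 to 33.5 CPM (median 13.7 CPM) in MMP2-/-, 6.53 to 31.1 CPM (median 17.02 CPM) in MMP9-/- and 3.39 to 38.9 CPM (median 17.8 CPM) in MMPdKO. WT replicate 6 was the highest library of this tissue, and WT replicates 3 and 5 were low. The log2 fold changes of Rsad2 were -1.05, -1.10 and -1.03 (SE 0.48, 0.44 and 0.46, adjusted p = 0.865, 0.437 and 0.465). Beside it stood Ifi27 (log2 fold change -0.34 with SE 0.15, adjusted p = 0.865) and Oas3 (log2 fold change -0.89 with SE 0.38, adjusted p = 0.865) in MMP2-/-, Oas3 (log2 fold change -0.82 with SE 0.34, adjusted p = 0.492) and Isg15 (log2 fold change -0.74 with SE 0.33, adjusted p = 0.517) in MMP9-/-, and Parp14 (log2 fold change -0.57 with SE 0.23, adjusted p = 0.451) and Gbp7 (log2 fold change -1.16 with SE 0.51, adjusted p = 0.464) in MMPdKO. Gbp7 was tested only through WT libraries, with up to 25 counts there and up to 13 in the knockouts. At an unadjusted p under 0.05 there were 3 of 29 members in each knockout, against 5.63%, 8.78% and 9.95% of all genes, and DESeq2 called 0 in each. The median log2 fold changes were -0.20, -0.14 and -0.15.

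Whether a knockout effect differed between the 3 tissues was tested in 33 members over the 80 libraries, and no member passed. For the MMPdKO effect 0.0177% of all genes passed. The smallest p were those of Rtp4 (adjusted p = 0.194), Ifitm2 (0.221) and Psmb8 (0.242), and 11 members had an unadjusted p under 0.05, against 13.6% of all genes. The effects on Oas3 and Ifitm2 seen in the growth plate were thus not shown to be particular to that tissue. For the MMP9-/- effect 4 members and for the MMP2-/- effect 1 member had an unadjusted p under 0.05, against 10.6% and 2.79% of all genes, and DESeq2 called 0 members for each of the 3 effects. The smallest p were those of Tap1 (adjusted p = 0.379), Psmb9 (0.395) and Psmb8 (0.409) for MMP9-/- and of Rtp4, Eif2ak2 and Parp14 (unadjusted p = 0.0277, 0.0978 and 0.139) for MMP2-/-. An effect of both losses beyond the sum of the single ones was tested within each tissue, where 0 members and 0% of all genes passed and DESeq2 called 0 members. At an unadjusted p under 0.05 there were 1 of 26 growth plate, 5 of 32 calvaria and 3 of 29 cortical bone members, against 5.00%, 6.16% and 3.50% of all genes. The smallest p in the growth plate were those of Irf7 (log2 difference 0.84 with SE 0.35, adjusted p = 0.920), Parp14 (-0.66 with SE 0.35, adjusted p = 0.920) and Oasl2 (0.98 with SE 0.59, adjusted p = 0.920). In the calvaria they were those of Irf7 (log2 difference 0.67 with SE 0.27, adjusted p = 0.742), Rsad2 (1.000 with SE 0.42, adjusted p = 0.762) and Ifitm1 (-0.74 with SE 0.31, adjusted p = 0.762), and in the cortical bone those of B2m (log2 difference -0.99 with SE 0.40, adjusted p = 1), Ifi27 (0.43 with SE 0.20, adjusted p = 1) and Oas3 (1.16 with SE 0.55, adjusted p = 1).

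Among WT mice, Oas2 and Oasl1 were lower in the growth plate than in the cortical bone, 2 of 30 members tested, against 3.03% of the 10097 genes. Both belong to the oligoadenylate synthetase family. Oas2, on chromosome 5 (GRCm38, 120730333 to 120749853), was at 0 to 5.59 CPM (median 2.19 CPM) in the 7 growth plates and at 0 to 27.4 CPM (median 11.1 CPM) in the 7 cortical bones. All cortical bone libraries except replicate 5, which had no count, lay above all growth plate libraries. The log2 fold change was -1.99 (SE 0.53, adjusted p = 0.0369). Oasl1, which in mice is known to repress the translation of Irf7, was at 2.09 to 8.74 CPM (median 4.47 CPM) in the growth plate and at 1.78 to 23.1 CPM (median 15.8 CPM) in the cortical bone. The groups overlapped through cortical bone replicates 2 and 5, and the log2 fold change was -1.43 (SE 0.39, adjusted p = 0.0442). Oasl1 reached the count minimum in cortical bone replicate 6 alone, so this call is not independent of the minimum. In a fit without a minimum the adjusted p was 0.0369 for Oas2 and 0.0433 for Oasl1, and with the stricter filterByExpr neither Oas2 nor Oasl1 was tested. Few counts stood behind these levels, at most 5 of Oas2 and 8 of Oasl1 in a growth plate library and 34 and 22 in a cortical bone library. Of the 30 members 26 were negative, with a median of -0.31 against 0.00 for all genes, and 7 were lower and none higher at an unadjusted p under 0.05, against 7.34% of all genes lower and 17.7% in either direction. Among the 26 members that reached the minimum in more than 1 tissue, 22 were negative, with a median of -0.28. Some of these, Oas2 among them, reached it in the calvaria and the cortical bone but not in the growth plate. The minimum favoured their direction too. Psmb9 (log2 fold change -0.67 with SE 0.20, adjusted p = 0.0592) and Parp14 (log2 fold change -0.64 with SE 0.20, adjusted p = 0.0772) came next.

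Ifitm3 and Parp14 were higher in the cortical bone than in the calvaria of WT mice, 2 of 30 members against 6.35% of all genes. Ifitm3 was at 172 to 249 CPM (median 219 CPM) in the cortical bone and at 140 to 177 CPM (median 163 CPM) in the calvaria. The groups overlapped only through cortical bone replicate 2, and the log2 fold change was 0.42 (SE 0.12, adjusted p = 0.0285). Parp14 was at 30.3 to 62.8 CPM (median 44.02 CPM) in the cortical bone and at 16.5 to 36.1 CPM (median 29.6 CPM) in the calvaria, with cortical bone replicates 3 and 5 inside the range of the calvaria. Its log2 fold change was 0.65 (SE 0.19, adjusted p = 0.0435). Of the 30 members 25 were positive, with a median of 0.25 against 0.03 over all genes, and 8 had an unadjusted p under 0.05, against 20.6% of all genes. Among the 26 members that reached the minimum in more than 1 tissue, 21 were positive, with a median of 0.21. Rtp4 among them did not reach it in the calvaria, so the minimum favoured its direction. Psmb8 came next (log2 fold change 0.41 with SE 0.15, adjusted p = 0.0925). Without a count minimum neither Ifitm3 (adjusted p = 0.0508) nor Parp14 (0.0631) passed, and the 2 members called were Cxcl10 and Gbp2, which are under the minimum in these libraries. Between the growth plate and the calvaria of WT mice 0 of 30 members passed in edgeR, while 4.86% of all genes did. There 2 members had an unadjusted p under 0.05, against 16.9% of all genes, and DESeq2 called Oas2. Oas2 came nearest in edgeR too (log2 fold change -1.78 with SE 0.54, adjusted p = 0.0566), followed by Rtp4 (log2 fold change 1.01 with SE 0.44, adjusted p = 0.219) and Oas3 (log2 fold change -0.59 with SE 0.29, adjusted p = 0.302).

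**Figure D4:**
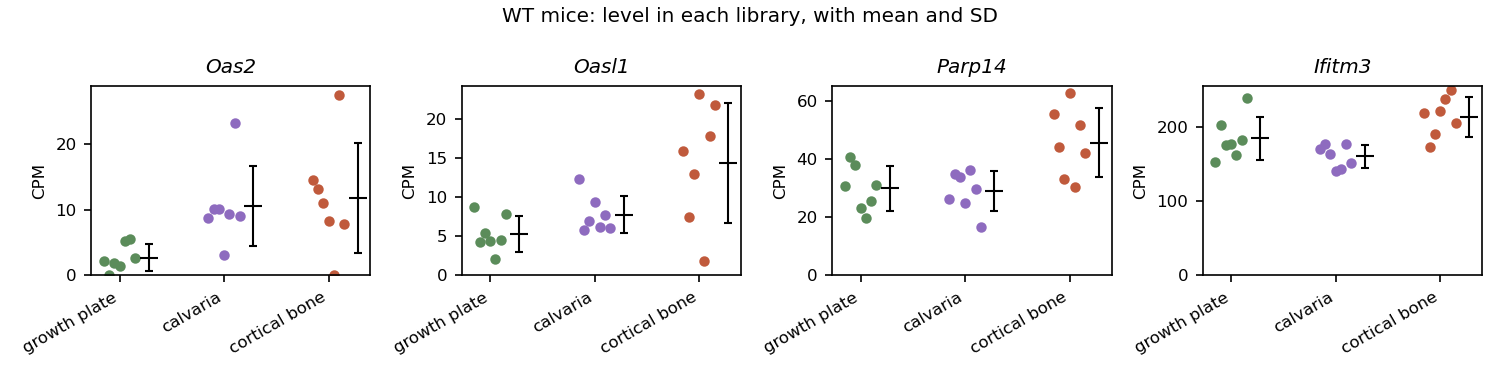
Level (CPM, linear axis from 0) of the 4 members that passed between tissues of WT mice, in each of the 7 libraries per tissue. Points are libraries, and the bar beside them gives the mean and SD. Oas2 stays at or under 5.59 CPM in the growth plate, and Ifitm3 and Parp14 lie higher in the cortical bone than in the calvaria with overlap.

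All 4 tissue calls were lost with the mouse as a block, the fit that takes account of tissues from the same animal. The adjusted p was then 0.201 for Oas2, 0.262 for Oasl1, 0.179 for Ifitm3 and 0.229 for Parp14, with log2 fold changes of -1.84, -1.17, 0.42 and 0.56. Without the growth plate libraries low in Col2a1, Oas2 and Oasl1 did not pass (adjusted p = 0.126 and 0.0841). With 1 library left out in turn, Oas2 was lost without growth plate replicate 1, 2, 3, 4 or 7 or cortical bone replicate 1, 2, 4 or 6 (adjusted p = 0.153 without the last). Oasl1 was lost without growth plate replicate 2, 3, 4, 5 or 6, calvaria replicate 5 or cortical bone replicate 1, 4 or 7 (adjusted p = 0.107 without the last), and without cortical bone replicate 6 it did not reach the count minimum. Ifitm3 was lost without growth plate replicate 6, calvaria replicate 4, 5, 6 or 7 or cortical bone replicate 1 or 6 (adjusted p = 0.106 without the last). Parp14 was lost without growth plate replicate 5, 6 or 7, calvaria replicate 1, 2, 4, 6 or 7 or cortical bone replicate 1, 2, 4, 6 or 7 (adjusted p = 0.112 without cortical bone replicate 6).

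Markers of some blood cells moved with these tissue differences. Among all genes 3.03% passed between growth plate and cortical bone and 6.35% between cortical bone and calvaria, in either direction. In WT cortical bone and calvaria the median summed levels were 338 and 588 CPM for plasmacytoid dendritic cells and 1055 and 1057 CPM for B cells. They were 143737 and 138779 CPM for erythroid cells, 2830 and 2132 CPM for macrophages and monocytes, and 87.3 and 62.4 CPM for T and NK cells. The plasmacytoid dendritic cell list holds Cox6a2, which is also counted among the genes of cardiac muscle contraction. Skeletal muscle markers summed to medians of 6020 CPM in WT cortical bone and 11735 CPM in WT calvaria. The part of muscle RNA in the plasmacytoid dendritic cell level was not tested. Of 18 neutrophil and granulocyte precursor markers tested 10 were lower in the growth plate than in the cortical bone, with a median log2 fold change of -1.02, and 7 were higher in the cortical bone than in the calvaria. Their summed level was 3476 to 9534 CPM in WT growth plate, 4543 to 8591 CPM in WT calvaria and 6198 to 17894 CPM in WT cortical bone, with none of the 19 at 0 throughout a group. Of 7 megakaryocyte markers 6 were lower in the growth plate than in the cortical bone (179 to 444 CPM against 314 to 1279 CPM). Their part in the values of the members was not tested. Of 38 further interferon-induced genes 4 were lower in the growth plate than in the cortical bone, against 3.03% of all genes in either direction. Igtp, an immunity-related GTPase, was at 16.8 ± 5.19 CPM against 33.98 ± 10.1 CPM (SD, log2 fold change -0.999 with SE 0.22, adjusted p = 0.00954), and Sp110, a nuclear body protein, at 18.3 ± 5.73 CPM against 39.2 ± 16.5 CPM (log2 fold change -1.12 with SE 0.26, adjusted p = 0.0142). The others were Sp140 (log2 fold change -1.14 with SE 0.30, adjusted p = 0.0346), which reached the count minimum in the cortical bone alone, and Lgals9 (log2 fold change -0.69 with SE 0.19, adjusted p = 0.0484), and both were also higher in the cortical bone than in the calvaria (log2 fold changes 0.96 and 0.64, both with adjusted p = 0.0456). The class I gene H2-T23 was lower in the growth plate than in the cortical bone (log2 fold change -0.65 with SE 0.16, adjusted p = 0.0289), 1 of 13 further antigen presentation genes. Socs3, an inhibitor of JAK signaling, was higher in the growth plate than in the calvaria, at 44.6 ± 17.2 CPM against 21.1 ± 6.15 CPM (log2 fold change 1.06 with SE 0.26, adjusted p = 0.0151). It was 1 of 11 negative regulators, against 4.86% of all genes in that comparison.

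Neighbours of the Ifitm members on chromosome 7 were compared as well. Ifitm5, a gene of osteoblasts that is not known as an interferon target, ends 4545 bases from Ifitm2 (GRCm38, 140948958 to 140950291). It was at 150 ± 37.2 CPM in WT calvaria, 250 ± 77.5 CPM in WT cortical bone and 258 ± 93.95 CPM in WT growth plate (SD, n = 7 each). Ifitm5 was higher than in the calvaria both in the cortical bone (log2 fold change 0.74 with SE 0.22, adjusted p = 0.0398) and in the growth plate (log2 fold change 0.80 with SE 0.22, adjusted p = 0.0288). Ifitm6 (141015699 to 141017924) was at 78.02 ± 37.4 CPM in WT cortical bone, 32.3 ± 15.6 CPM in WT growth plate and 39.2 ± 12.1 CPM in WT calvaria. It was lower in the growth plate than in the cortical bone (log2 fold change -1.28 with SE 0.31, adjusted p = 0.0218) and higher in the cortical bone than in the calvaria (log2 fold change 1.03 with SE 0.30, adjusted p = 0.0382). Ifitm2, which lies between them, passed in none of the 3 tissue comparisons (adjusted p = 0.497, 0.681 and 0.161).

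Some members varied together from library to library within a tissue. Deviations of each library from its genotype mean, on the log2 CPM scale, were compared within each tissue for the 21 members with a median of at least 10 CPM, a comparison chosen after the values were seen. Of the 210 pairs per tissue 3 passed in growth plate, 6 in calvaria and 9 in cortical bone (Pearson's r, libraries permuted within genotypes, adjusted over 630 relations), and 17 of these 18 were positive. The median r was 0.13, 0.13 and 0.14, so most pairs showed little relation. Isg15 and Rsad2 had r = 0.80 and rho = 0.75 (permutation p = 4e-05 and 0.00016, adjusted p = 0.0189 and 0.0252, r = 0.71 without the extreme pair) over 27 growth plate libraries. In the 25 cortical bone libraries they had r = 0.71 and rho = 0.70 (permutation p = 0.00017 and 0.00032, adjusted p = 0.0189 and 0.0288, r = 0.73 without the extreme pair), and in the 28 calvaria libraries r = 0.09 and rho = 0.04 (permutation p = 0.697 and 0.859, adjusted p = 0.899 and 0.956). The extreme pair are the 2 libraries farthest from the median of the measure on the x axis. Irf9 and Isg15 had r = 0.68 and rho = 0.74 (permutation p = 0.00012 and 0.0001, adjusted p = 0.0189 and 0.0252, r = 0.65 without the extreme pair) in the cortical bone. The negative pair was Ifitm2 and Rsad2 in the cortical bone, at r = -0.69 and rho = -0.72 (permutation p = 0.0001 and 0.0001, adjusted p = 0.0189 and 0.0252, r = -0.61 without the extreme pair).

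The deviations also followed markers of other cells. With 21 members, 12 marker lists and 3 tissues, 756 relations were computed, of which 68 passed. Isg15 and the erythroid score had r = 0.84 and rho = 0.85 (permutation p = 3e-05 and 1e-05, adjusted p = 0.00336 and 0.00378, r = 0.82 without the extreme pair) in the growth plate, where 1e-05 is the smallest p that 100000 permutations can give. They had r = 0.78 and rho = 0.76 (permutation p = 7e-05 and 7e-05, adjusted p = 0.00378 and 0.00529, r = 0.67 without the extreme pair) in the cortical bone and r = 0.28 and rho = 0.16 (permutation p = 0.178 and 0.451, adjusted p = 0.446 and 0.708) in the calvaria. Rsad2 followed the erythroid score in the growth plate as well, at r = 0.85 and rho = 0.81 (permutation p = 1e-05 and 3e-05, adjusted p = 0.00336 and 0.00454, r = 0.78 without the extreme pair). Psmb8 followed the neutrophil score, at r = 0.70 and rho = 0.77 (permutation p = 8e-05 and 7e-05, adjusted p = 0.00378 and 0.00529, r = 0.66 without the extreme pair) in the growth plate and r = 0.81 and rho = 0.84 (permutation p = 4e-05 and 2e-05, adjusted p = 0.00336 and 0.00378, r = 0.72 without the extreme pair) in the cortical bone. Ifitm2 went the other way in the cortical bone, at r = -0.75 and rho = -0.66 (permutation p = 0.0001 and 0.00105, adjusted p = 0.00420 and 0.0209, r = -0.66 without the extreme pair) with the neutrophil score and r = 0.73 and rho = 0.78 (permutation p = 2e-05 and 4e-05, adjusted p = 0.00336 and 0.00504, r = 0.68 without the extreme pair) with the osteoblast score. Both values of a relation come from the same library and share its cell makeup and depth.

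**Figure D5:**
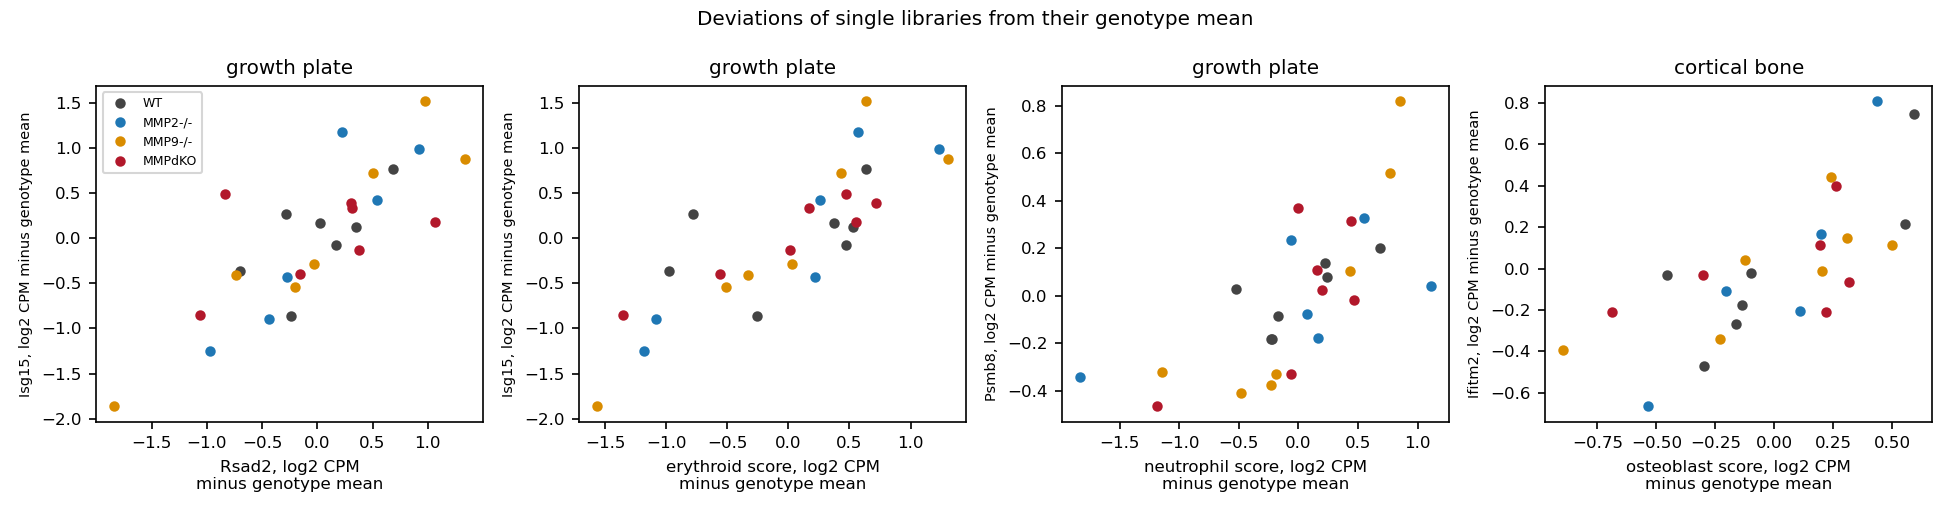
Deviation of single libraries from their genotype mean, in log2 CPM, for Isg15 against Rsad2, Isg15 against the erythroid score and Psmb8 against the neutrophil score in the growth plate (27 libraries), and Ifitm2 against the osteoblast score in the cortical bone (25 libraries). Points are libraries coloured by genotype, and the 4 panels rise from left to right with r of 0.80, 0.84, 0.70 and 0.73.

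For no single member was a mouse with a high level in 1 tissue shown to have a high level in another. Each of the 39 members was compared between tissues of the same mouse, as deviations from the genotype mean, over 24 mice for the growth plate and the calvaria and 20 mice for each other pair of tissues. Of the 117 relations 0 passed the adjustment. Dhx58, a regulator of RNA sensing, had r = 0.71 and rho = 0.70 (permutation p = 0.00224 and 0.00322, adjusted p = 0.126 and 0.126, r = 0.60 without the 2 mice farthest from the median) in cortical bone and calvaria. Ifi27 had r = 0.60 and rho = 0.64 (permutation p = 0.00323 and 0.00197, adjusted p = 0.126 and 0.115, r = 0.51 without the 2 mice farthest from the median) in growth plate and calvaria. The median r over the members was 0.11 for growth plate and calvaria, 0.06 for growth plate and cortical bone and 0.06 for cortical bone and calvaria.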

How the data were processed

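RNA from 80 tissue samples was made into 3' end libraries by a bulk form of MARS-seq. Per the labels, reads were processed with bcl2fastq 2.20.0.422, cutadapt, STAR 2.7.3a on GRCm38 and HTSeq, and the authors deposited raw counts per gene with no normalization. A second table of the same counts divided by a size factor for each library was not used here. Whether molecular identifiers were collapsed is not given in the sources used here, so the counts may include PCR copies, and counting error is only part of their error. Samples were grouped by the labelled tissue and genotype.

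The counts were tested in R 4.3.3 with edgeR 4.0.16 (quasi-likelihood test, TMM). A gene needed at least 15 counts in 1 library of the fit, and p-values were adjusted over all genes (Benjamini-Hochberg, threshold 0.05). Each tissue was fitted with its 4 genotypes, the 21 WT libraries were fitted for tissue differences, and all 80 for differences of a knockout effect between tissues. Levels are CPM on one TMM scale over the 80 libraries, and log2 CPM has a prior count of 2. The SE of a log2 fold change is its size divided by the square root of F. Alternatives were DESeq2 1.42.0, RLE factors, other count filters, pairwise fits, marker score covariates, replicate blocks and fits without single libraries. The tests were checked on simulated data.

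The members and the lists of pathway genes and markers were chosen with earlier results of these data known. A gene of the receptor and kinase list is not reported here. All members are accounted for, and values are given for those that passed and, where fewer than 3 passed, for the 3 with the smallest p in that comparison. From each pathway list up to 4 genes that passed are named, and the Ifitm neighbours are named as a family. For tissues of WT mice the labels tie the libraries to animals, and the correlation of deviations between tissues of the same mouse had a mean of -0.038 over 6 mice for growth plate and calvaria, 0.026 over 6 for growth plate and cortical bone and -0.123 over 5 for cortical bone and calvaria. The largest correlation of log2 counts within a group was 0.9461, so no library appeared to be deposited as a copy.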

Additional observations from a re-analysis of the deposited data

Results flagged for a closer look

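The mean log2 CPM of the 39 members was 5.124 in cortical bone WT replicate 6, above the other WT libraries of this tissue, and the group median was 4.572. The gap to the next library was 0.608 of the whole range of the group, over the limit of 0.568 for 7 samples. Of 24 groups of values checked this was the only one with such a sample, and chance gives about 1 in 20. The same library had the highest Rsad2 and Oas2 levels of WT cortical bone and the highest neutrophil score of that group, 8.14 against 6.75 to 7.78 in the others. It came from mouse 209_20. The growth plate and calvaria libraries of this mouse also had the highest means of their WT groups. These were 4.546 (next 4.537) and 4.567 (next 4.438). Only WT mice have labels ending in 20. Without those mice the growth plate calls of Oas3 and Ifitm2 in MMPdKO passed (edgeR adjusted p = 0.0333 and 0.0232).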

How the results depend on the processing

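Of 19 results, 14 had the same count of members passed, 0, in every setting, and no result reversed. For MMPdKO against WT in the growth plate 2 members passed, against 4 with DESeq2, 1 without a count minimum, 6 with only the 2 groups in the fit, 0 with the macrophage or the neutrophil score as a covariate, and 0 to 4 with 1 library left out. For MMP9-/- in the growth plate the count was 0 to 1 with 1 library left out. For WT growth plate against calvaria 0 passed, against 1 with all 80 libraries, DESeq2 or only the 2 groups, and 0 to 1 with 1 library left out. For WT growth plate against cortical bone 2 passed, against 0 with filterByExpr, where Oas2 and Oasl1 were not tested, 0 with only the 2 groups, 1 without the growth plate libraries low in Col2a1 (Parp14) and 0 to 5 with 1 library left out. For WT cortical bone against calvaria 2 passed, against 1 with RLE factors or only the 2 groups and 0 to 4 with 1 library left out, and without a count minimum 2 other members passed in place of both. The cause of these shifts was not tested.

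With the mouse as a replicate block 0 members passed in both of these last comparisons. With the number of the sample title as a block 1 and 0 passed, and 2 in the growth plate MMPdKO comparison. The title numbers did not pair the samples (mean correlation of deviations -0.096 to 0.076). The block changed no other call. Members under 15 counts in all libraries of a fit were left out of it by the chosen minimum.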
